A study of Mus musculus with 12 samples.

Results

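MHC-CELFΔ mice carry a transgene for a dominant negative CELF protein that is held in the nucleus and made in heart muscle after birth, from the mouse α-myosin heavy chain promoter. Both transgenic lines are kept as hemizygotes, so each litter holds transgenic and wild type animals. The mild line, MHC-CELFΔ-574, makes less of the protein than the severe line, MHC-CELFΔ-10. The data described here are the 6 arrays of the mild line among the 12 of the series: whole hearts of 3 transgenic females of line MHC-CELFΔ-574 and of 3 wild type females from the litters of that same line. All animals were FVB/N, 3 weeks old and untreated. The arrays were chosen by their labels for line and genotype and not by any measured value. The mild line stands for 1 transgene integration, and a whole heart holds atria, ventricles, vessels and connective tissue besides the muscle cells in which the promoter is active.

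CELF proteins bind RNA and control alternative splicing of muscle transcripts in the developing and adult heart, where they act in opposition to the MBNL proteins at many exons. Blocking them changes which isoforms are made, and the abundance of other transcripts can follow. The arrays measure abundance with probes that mostly lie near the 3′ end of a transcript, so that a change of isoform is seen only where a probe lies in the exon concerned.

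Each array gave a log2 signal for 30854 distinct features, where a feature is a probe or a group of probes with identical rows. The median feature lay at 6.58 on every array after the authors' normalization, close to the background, and the raw medians of the 6 arrays ran from 102.8 to 112.5 intensity units. Within a genotype the mean correlation of an array with the others was 0.9935 to 0.9946, and against the other genotype of the line it was 0.9887 to 0.9894. A feature was called where the mild line differed from its own littermates at a Benjamini-Hochberg adjusted p under 0.05 from limma, at any fold. Dim features carry a compressed fold, because the deposited values keep most of the background. All changes are log2 differences, mild line minus its own littermates, with the standard error (SE) and n = 3 against 3. With 3 arrays per group, their number limits the precision. Heart muscle markers lay far above background: over the 13 genes of the cardiomyocyte list the mean log2 level was 13.5 in each littermate and 13.2 to 13.3 in the mild line hearts.

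A reading of the transgene was taken from 1 feature of Celf4. The study's text does not name the gene from which its dominant negative CELF protein was derived. The probe was not compared with the transgene. The signal of this Celf4 feature was 6.48, 6.29 and 6.39 in the littermates, at background, and 11.42, 11.43 and 11.48 in the mild line hearts. The difference was 5.06 (SE 0.114, adjusted p = 1.5e-12), the largest increase among the 30854 features. The other 3 Celf4 features stayed at background, with differences between -0.04 and 0.09. The severe line showed a rise of 4.95 on the same feature, and the 2 lines did not differ there beyond their spread (0.11, SE 0.162, adjusted p = 0.95). The feature measures RNA, whereas the study describes the 2 lines by their level of protein. None of the other 8 measured members of the CELF and MBNL family passed the test. Celf1 had a difference of -0.20 (SE 0.074, adjusted p = 0.282). Celf2 had 0.18 (SE 0.079, adjusted p = 0.405), Mbnl1 0.11 and Mbnl2 0.02.

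Apart from this Celf4 feature, most transcripts of the mild line hearts were near the level of the littermates, and the changes that passed the test were mostly small. Of 30854 features 765 were called (2.48%), 350 of them higher (1.13%) and 415 lower (1.35%), while 96.08% of all features differed by less than 1.2-fold. At an unadjusted p under 0.05 there were 3229. Only 68 features (0.22%) were past 2-fold, 30 higher and 38 lower, so 697 of the 765, or 91.11%, lay under 2-fold. By size, 43 called features differed by less than 1.2-fold, 485 by 1.2-fold to 1.5-fold and 169 by 1.5-fold to 2-fold. The median fold of a call was 1.37 and the smallest was 1.16. In 763 of the 765 the 3 mild line arrays and the 3 littermates did not overlap, which was so for 16.84% of all features. Nearly all calls, 752, were of features above the median signal. The called features with 1 symbol stood for 654 genes. Of 122 genes that had more than 1 feature and at least 1 call, 13 had every feature called, so a call holds for the probe named and not for each transcript of its gene. Counted with the brightest feature of each gene, 646 of 19013 genes were called (3.4%), 300 higher (1.58%) and 346 lower (1.82%), and these shares are the background for the gene groups that follow. Past 2-fold were 57 genes (0.3%). The gene lists were chosen with earlier results of these data known, so their counts describe these hearts and are not independent evidence.

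**Figure D1:**
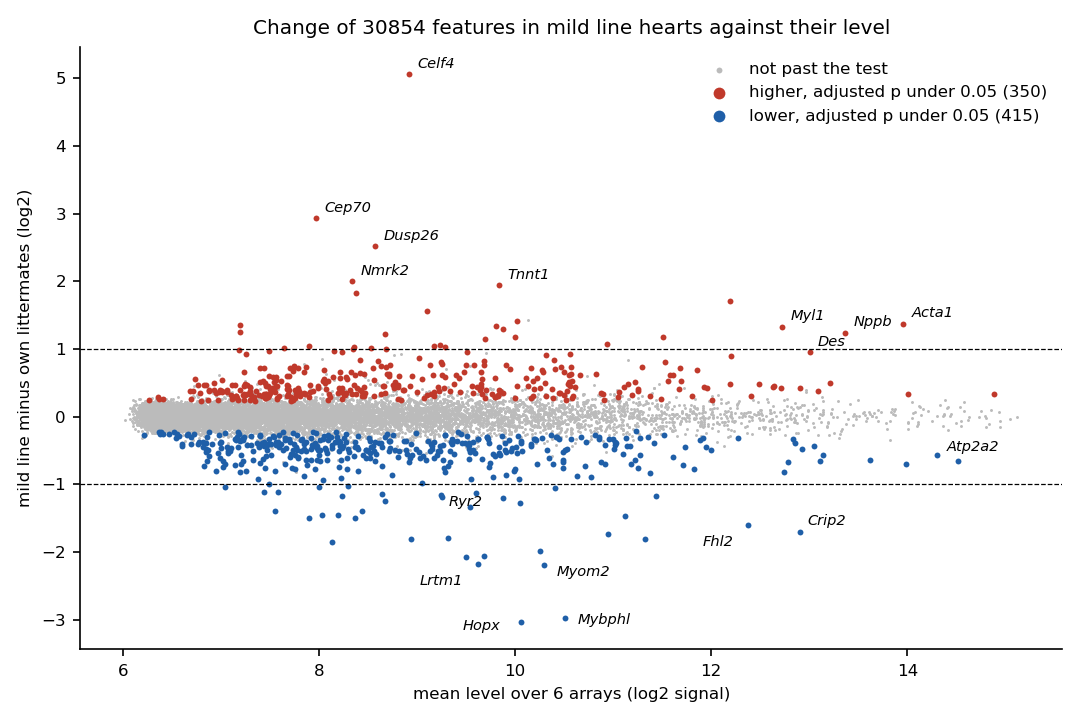
Each point is 1 feature; the horizontal axis is its mean log2 signal over the 6 arrays and the vertical axis the log2 difference of mild line and littermates, with dashed lines at 2-fold. Celf4 stands alone at 5.06, and of the 765 called features, in red and blue, 697 lie between the dashed lines.

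The transcription factor SRF binds CArG boxes and drives sarcomere, immediate early and fetal heart genes, and the homeodomain protein Hopx and the LIM protein Fhl2 bind SRF and hold back its activity. Both inhibitors were strongly lower in the mild line. Hopx had 11.49, 11.61 and 11.64 in the littermates and 8.71, 8.49 and 8.44 in the mild line, so no mild line heart came near a littermate. The difference was -3.03 (SE 0.088, adjusted p = 2.7e-11), an 8.18-fold decrease and the largest among all features. Fhl2 had 13.28, 13.13 and 13.12 in the littermates and 11.48, 11.69 and 11.56 in the mild line, a decrease of the same kind (-1.60, SE 0.070, adjusted p = 2.8e-09). Its second, dimmer feature fell by 2.08. Srf itself was at 9.16, 9.07 and 9.22 in the littermates and 9.62, 9.41 and 9.19 in the mild line. Those groups overlapped, and the difference of 0.26 (SE 0.096) did not pass (adjusted p = 0.277).

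Promoter sequences of genes in this group are shown because the CArG box is the SRF binding motif, and they place it beside the changes. Each line gives the 150 bases before a RefSeq transcript start, in GRCm38.p6 and read on the strand of the gene, with the CArG box in capitals. The Acta1 window is chr8:123894776-123894925 on the minus strand, with the box at -73 to -64 from the start. That of Hopx is chr5:77115124-77115273 on the minus strand, with the box at -83 to -74. For Fhl2 it is chr1:43196762-43196911, minus strand, with the box at -96 to -87. Another Fhl2 window, chr1:43163962-43164111 on the minus strand, also holds a box, at -31 to -22, and is not shown. The Fhl1 window is chrX:56779533-56779682, plus strand, with the box at -102 to -93. For Myl7, which is described with the atrial genes, it is chr11:5898783-5898932, minus strand, with the box at -61 to -52.
Acta1: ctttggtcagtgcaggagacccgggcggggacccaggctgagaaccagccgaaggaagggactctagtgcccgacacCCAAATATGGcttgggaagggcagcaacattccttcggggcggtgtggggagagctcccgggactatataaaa
Hopx: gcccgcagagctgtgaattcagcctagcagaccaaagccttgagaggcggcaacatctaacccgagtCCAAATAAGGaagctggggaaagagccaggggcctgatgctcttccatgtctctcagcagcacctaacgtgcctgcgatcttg
Fhl2: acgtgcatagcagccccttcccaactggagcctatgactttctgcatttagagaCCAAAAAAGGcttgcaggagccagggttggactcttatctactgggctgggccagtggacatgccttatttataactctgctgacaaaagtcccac
Fhl1: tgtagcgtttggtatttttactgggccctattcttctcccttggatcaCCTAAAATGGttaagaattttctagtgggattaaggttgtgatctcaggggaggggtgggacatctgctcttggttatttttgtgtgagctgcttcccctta
Myl7: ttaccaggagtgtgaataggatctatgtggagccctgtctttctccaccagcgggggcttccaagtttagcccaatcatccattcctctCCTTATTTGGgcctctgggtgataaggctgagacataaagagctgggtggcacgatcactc
The 2 genes of this group that fell thus had the motif in these windows, as did Acta1. Rcan1, which rose by 1.83 on its dimmer feature, had none. Of 10 SRF network genes with a window, 5 held a CArG box, the other being Srf. A match is a description of the sequence and not a binding site. The motif reads the same on both strands, and 0.916% of all 32851 windows held it. By gene it was found in 6 of 235 called higher (2.55%), 5 of 269 called lower (1.86%) and 138 of 14703 not called (0.939%). Among the called genes it thus occurred with changes in both directions.

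Of the 12 measured genes of the SRF network that the study drew from these samples, 8 rose and 2 fell, with a median of 0.87 against 0.00 over all genes. The list was picked on the same hearts, so its count is no independent evidence of a direction. Acta1, skeletal α-actin, had 13.39, 13.20 and 13.23 in the littermates and 14.75, 14.66 and 14.53 in the mild line (1.37, SE 0.094, adjusted p = 6e-07). Rcan1, a feedback inhibitor of calcineurin, had 9.11, 8.98 and 9.58 against 10.51, 10.65 and 10.41 (1.30, SE 0.136, adjusted p = 4.3e-05), and its other feature rose by 1.83. The immediate early factor Egr1 rose by 1.07 (SE 0.185, adjusted p = 0.00366, but 0.0532 with median scaling of the raw intensities) and the matricellular factor Ccn2 by 0.89 (SE 0.146, adjusted p = 0.00234). Nppb, which encodes B-type natriuretic peptide, had 12.41, 12.63 and 13.21 in the littermates and 13.77, 14.07 and 14.13 in the mild line. The littermates were the more spread group, and the rise of 1.24 (SE 0.250, adjusted p = 0.0119) did not hold without mild line replicate 2 or 3 or without littermate replicate 1 or 2 (1.07 to 1.202, adjusted p = 0.0632 to 0.0728). Casq1, the calsequestrin of fast skeletal muscle, rose by 0.95 (adjusted p = 0.00972), a call that ended without mild line replicate 2 or littermate replicate 3 (adjusted p = 0.0632 and 0.0549). The LIM protein gene Fhl1 rose by 0.52, lost without mild line replicate 1 or 2 or littermate replicate 3 (adjusted p = 0.0548 to 0.0638). β-Tropomyosin, Tpm2, rose by 0.45, and of the 6 single arrays only mild line replicate 1 could be left out with the call kept (otherwise adjusted p = 0.0664 to 0.16). Fos had a difference of 0.85 (SE 0.232, adjusted p = 0.0773), although its arrays did not overlap, as in 16.84% of all features. Without mild line replicate 2, the calls in this network were 6 rather than 10.

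**Figure D2:**
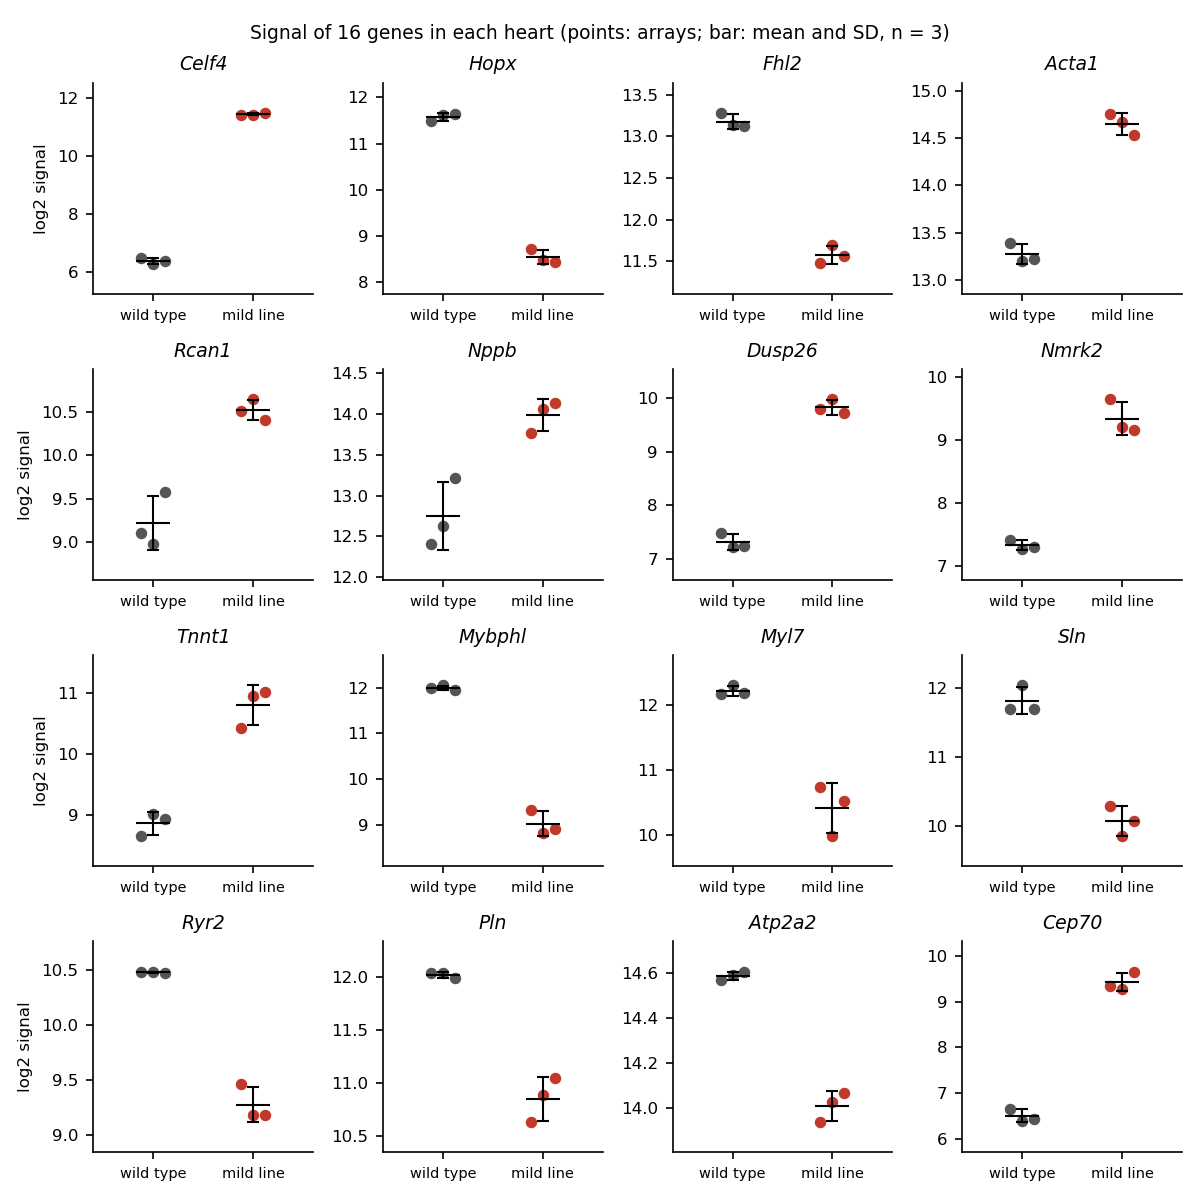
Each panel gives the log2 signal of 1 gene, with a point for every array of the 3 wild type littermates (grey) and the 3 mild line hearts (red), and the mean with its SD (n = 3). In each of the 16 genes, all of them called, the 2 groups do not overlap, as in 763 of the 765 called features. The vertical scales differ between panels.

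Sarcomere genes changed in both directions. In the cardiac sarcomere list 9 of 33 genes rose and 3 fell, while the median was 0.04. Myom2, a myomesin of the M-band, had 11.42, 11.37 and 11.40 in the littermates and 9.36, 9.10 and 9.14 in the mild line, a difference of -2.20 (SE 0.117, adjusted p = 2.8e-08). Among those that rose, Synpo2l rose by 1.22 (SE 0.130, adjusted p = 5.5e-05), Xirp2 by 1.06 (SE 0.109, adjusted p = 4e-05), Myot, which encodes myotilin, by 0.99 (SE 0.073, adjusted p = 1.2e-06) and the intermediate filament gene Des by 0.95 (SE 0.105, adjusted p = 7.4e-05). Flnc, filamin C, rose by 0.65, but not without mild line replicate 2 (0.58, adjusted p = 0.0708). Tcap, the titin cap, fell by 0.65 (adjusted p = 0.00593) and Trim63, a ubiquitin ligase of muscle wasting, fell by 0.63 (adjusted p = 0.00414). The main contractile chains of the ventricle did not pass the test: Myh6 differed by -0.09 (SE 0.057), Actc1 by 0.04 (SE 0.070) and Myl2 by -0.01 (SE 0.069). Without mild line replicate 2, the number of called genes in this list was 7 rather than 12.

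Isoforms of skeletal and fetal muscle were mixed in direction, with 5 of 23 higher and 3 lower. The slow skeletal troponin gene Tnnt1 had 8.65, 9.01 and 8.93 in the littermates and 10.43, 10.95 and 11.02 in the mild line (1.94, SE 0.145, adjusted p = 1.4e-06). Myl1, the fast skeletal light chain, had 11.99, 12.16 and 12.02 against 13.28, 13.37 and 13.51 (1.33, SE 0.122, adjusted p = 1.2e-05), with its other feature rising by 1.71. Mybpc2, the fast myosin-binding protein C, rose by 0.53 (SE 0.089, adjusted p = 0.00323). The fetal heavy chain gene Myh7 stayed near background at 6.81 and 6.98, and its difference of 0.17 did not pass (adjusted p = 0.487). The 3 lower members, Mybphl, Myl7 and Myl4, are also atrial genes.

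Genes that mark the atria were lower as a group. Of 15 measured 9 fell and none rose, with a median of -0.46, against 1.82% of all genes called lower. Mybphl, a myosin-binding protein H-like gene of the atria, had 11.98, 12.05 and 11.95 in the littermates and 9.33, 8.82 and 8.91 in the mild line, a difference of -2.97 (SE 0.121, adjusted p = 1.3e-09). Myl7, the atrial regulatory light chain, had 12.17, 12.31 and 12.19 against 10.74, 9.98 and 10.53 (-1.81, SE 0.163, adjusted p = 1e-05). Sarcolipin, Sln, an inhibitor of the calcium pump in atrial muscle, had 11.71, 12.04 and 11.70 against 10.29, 9.86 and 10.08 (-1.74, SE 0.153, adjusted p = 8.4e-06). In each of these genes every mild line heart lay more than 2-fold below the lowest littermate. Dkk3 fell by 1.13, the atrial light chain gene Myl4 by 0.70, the gap junction gene Gja5 by 0.69, Stard10 by 0.53 and Fgf12 by 0.46. Kcnj3, a channel subunit of the vagal potassium current, fell by 0.26 and lost its call without replicate 2 of either group (adjusted p = 0.0574 and 0.0578).

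The atrial peptide gene Nppa did not pass the test: it was at 14.87, 14.89 and 14.95 in the littermates and at 14.98, 14.92 and 15.02 in the mild line (0.07, SE 0.055, adjusted p = 0.769). It lay close to the highest value of every array, 15.12, where the scale leaves little room for a rise. Whether a fall would show in full at such a level was not tested. Bmp10 was near background and had -0.20 (adjusted p = 0.174). Tbx5 and Nr2f2 were also near background, and with Pam and Myh6 they had -0.09 to 0.03. The mean level over the 15 genes was 9.83 to 9.88 in the littermates and 9.09 to 9.22 in the mild line, so these groups did not overlap either. In whole hearts, fewer cells of a type and less RNA per cell cannot be told apart. How much atrial tissue each sample held is not given in the sources used here, and its part in these values was not tested. The count was 8 or 9 under each of the 18 alternative settings.

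Transcripts of the calcium release channel, the calcium pump and the pump's inhibitors were lower, while most calcium handling genes were not called. Of 40 genes 7 fell, 2 rose and 31 were not called, with a median of -0.05. Ryr2, the calcium release channel, had 10.48, 10.48 and 10.47 in the littermates and 9.46, 9.19 and 9.18 in the mild line (-1.20, SE 0.074, adjusted p = 1.8e-07). Its second feature was near background and did not move (0.01). Pln, phospholamban, which restrains the pump, had 12.04, 12.04 and 11.99 against 10.63, 10.88 and 11.04 (-1.17, SE 0.127, adjusted p = 5.9e-05). The pump gene Atp2a2 had 14.57, 14.59 and 14.61 against 13.94, 14.03 and 14.07 (-0.58, SE 0.062, adjusted p = 6e-05), and a second, dimmer feature of it fell by 0.86. Channel, pump and both of its inhibitors, Pln and Sln, thus fell together. In none of the 4 genes did the groups overlap, which held for 763 of the 765 called features and 16.84% of all. Hrc, a calcium-binding protein of the reticulum, fell by 0.47 (adjusted p = 0.00415). The channel subunit genes Cacnb2 and Cacna1g fell by 0.45 and 0.37, calls that were lost in 4 and in all 6 of the fits without 1 array (adjusted p up to 0.111 and 0.18). The cardiac calsequestrin gene Casq2 had -0.44 (adjusted p = 0.147), while its skeletal counterpart Casq1 rose. Pvalb, parvalbumin, a calcium buffer of fast muscle, rose by 0.49 (SE 0.066, adjusted p = 0.00045) from a level near background. With mild line replicate 2 or littermate replicate 3 left out there were 6 calls rather than 9.

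**Figure D3:**
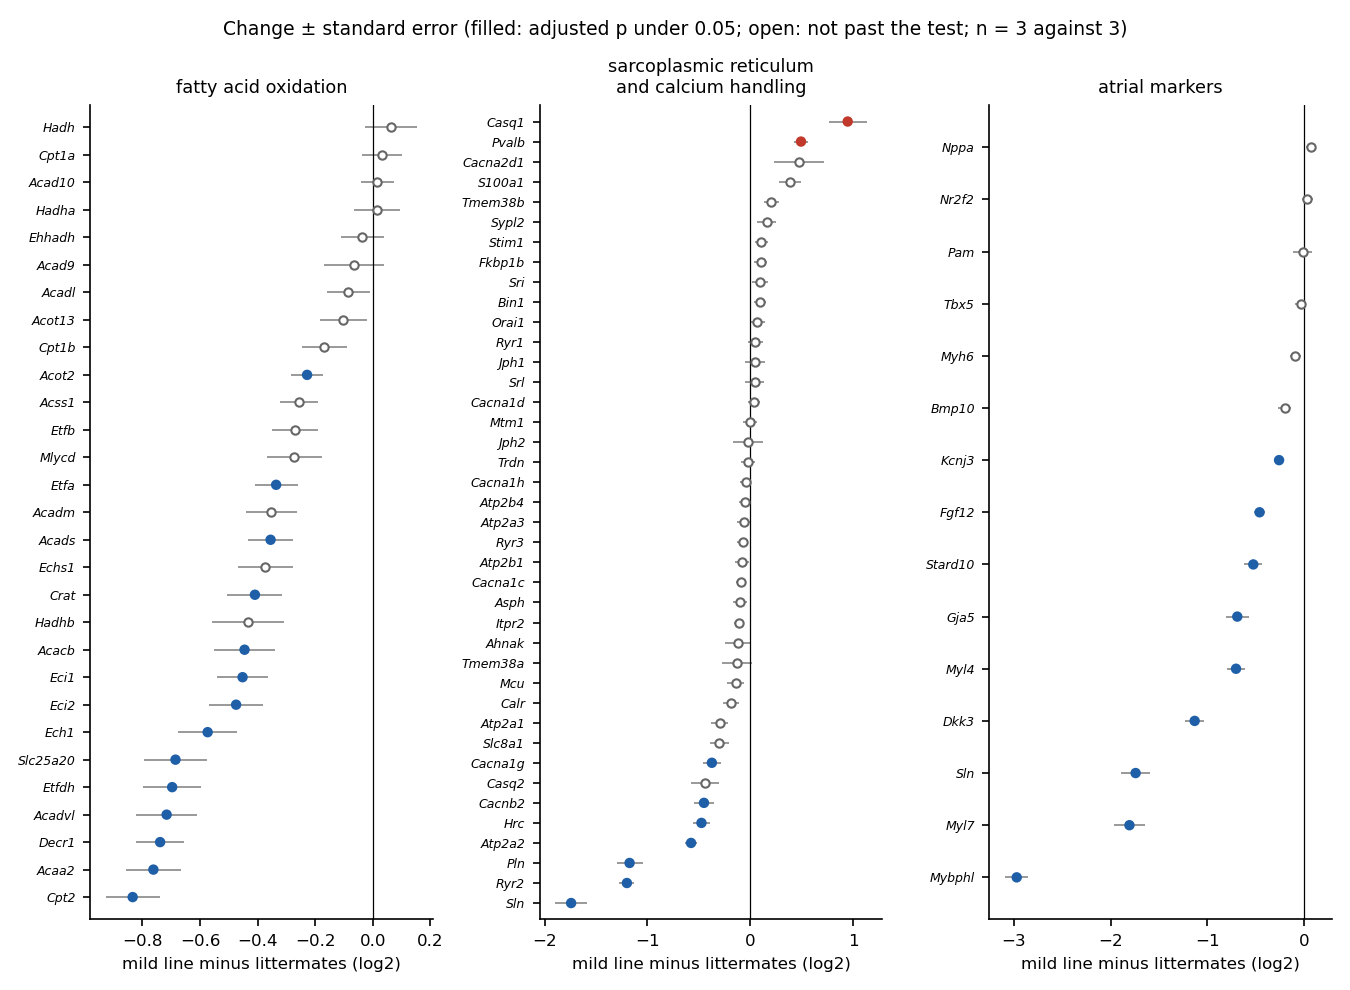
Points are the log2 difference of mild line and littermates for each measured gene of 3 lists, with its standard error (n = 3 against 3); filled points passed the test. Filled points lie left of 0 for 14 of 29 genes of fatty acid oxidation and 9 of 15 atrial genes, and for 7 of 40 calcium handling genes, in which 2 lie to the right.

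Among regulators of phosphatases and kinases, Dusp26, a dual-specificity phosphatase gene, rose the most. It had 7.49, 7.22 and 7.24 in the littermates and 9.80, 9.98 and 9.72 in the mild line (2.52, SE 0.110, adjusted p = 2.8e-09). Of the other 22 measured dual-specificity phosphatases only Dusp6, which acts on ERK, was called. It rose by 0.45, and not without mild line replicate 1 or 3 or littermate replicate 3 (adjusted p = 0.0521 to 0.057). In the calcineurin and CaM kinase list 3 of 30 rose and 3 fell. Ppp1r1a, the protein phosphatase inhibitor 1, had 7.74, 7.84 and 7.95 against 8.96, 8.79 and 8.77 (1.0008, SE 0.100, adjusted p = 2.9e-05). Another inhibitor of that phosphatase, Ppp1r14c, had 8.03, 7.84 and 8.11 against 7.09, 7.01 and 6.88 (-1.0004, SE 0.133, adjusted p = 0.0004). Ppp1r1b fell by 0.38 and Phkg1, a catalytic subunit of phosphorylase kinase, by 0.66 (adjusted p = 0.00138).

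Genes of electrical activity and of contacts between muscle cells fell where they moved at all. Of 24 potassium channel genes 5 fell and none rose. Kcnv2 had 8.34, 8.35 and 8.05 in the littermates and 7.01, 6.81 and 6.72 in the mild line (-1.40, SE 0.118, adjusted p = 5.8e-06). Kcnd2, a pore subunit of the transient outward current, had 8.72, 8.85 and 8.86 against 7.82, 7.75 and 7.77 (-1.03, SE 0.126, adjusted p = 0.00021). Its partner Kcnip2 fell by 0.37, with a call that was lost without littermate replicate 2 (adjusted p = 0.0501) and with the severe line's littermates as controls (-0.20, adjusted p = 0.145). Abcc9, a subunit of the ATP-sensitive channel, fell by 0.35 (adjusted p = 0.007, but 0.0596 with median scaling). Without littermate replicate 2 this list had 3 calls. Gja1, the main ventricular connexin, had 13.04, 13.12 and 13.29 against 12.25, 12.29 and 12.46 (-0.82, SE 0.120, adjusted p = 0.00102). The desmosome gene Dsg2 fell by 0.47 (adjusted p = 0.00083), α-catenin, Ctnna1, by 0.39 (adjusted p = 0.00534, but 0.0825 with median scaling) and Myzap, a protein of the intercalated disc, by 0.73 (adjusted p = 3.6e-05). In the intercalated disc and dystrophin list, which does not hold Gja1 or Myzap, 3 of 30 were lower and none higher.

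Blood pressure genes included large decreases. Corin, the protease that activates natriuretic peptides, had 11.80, 11.88 and 11.89 in the littermates and 10.41, 10.36 and 10.38 in the mild line (-1.47, SE 0.105, adjusted p = 1e-06). Agtr1a, an angiotensin receptor, had 8.47, 8.64 and 8.41 against 7.38, 7.60 and 7.74 (-0.94, SE 0.095, adjusted p = 3.3e-05). Of 26 genes in this list 3 fell and none rose, the third being Adra1b at -0.28, which kept its call without littermate replicate 1 only (otherwise adjusted p = 0.0574 to 0.138). Hamp, which encodes the iron hormone hepcidin, had 10.02, 10.41 and 10.21 against 8.54, 7.97 and 8.71 (-1.80, SE 0.202, adjusted p = 8.5e-05).

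Fatty acid oxidation was the metabolic list with the largest share of calls, all of them under 2-fold. Of 29 genes 14 fell and none rose (48.3%, against 1.82% of all genes called lower), the median was -0.35, and 25 of the 29 were below 0. Cpt2, which restores acyl-CoA inside the mitochondrion, had 11.95, 11.73 and 11.71 in the littermates and 11.14, 10.95 and 10.80 in the mild line (-0.83, SE 0.094, adjusted p = 8.5e-05). Acaa2, the thiolase of the last step, had 11.88, 11.48 and 11.53 against 11.03, 10.74 and 10.84 (-0.76, SE 0.096, adjusted p = 0.00025). Decr1, needed for unsaturated chains, fell by 0.74 (SE 0.084), Acadvl, the very long chain dehydrogenase, by 0.72 (SE 0.107), Etfdh, which passes the electrons on, by 0.70 (SE 0.101), the carnitine carrier gene Slc25a20 by 0.69 (SE 0.110) and Ech1 by 0.57 (SE 0.102). These genes span steps from the carnitine carrier to electron transfer. Cpt1b, the muscle enzyme at the entry, had -0.17 and did not pass (adjusted p = 0.477). The count rests partly on single arrays. It was 7 without mild line replicate 2, 7 without littermate replicate 1, and 9 with median scaling, and ran up to 18 in other settings. Eci2, Eci1, Acacb, Crat, Acads, Etfa and Acot2 lost their calls in 1 or more fits without 1 array (adjusted p up to 0.186), whereas Cpt2, Acaa2, Decr1, Acadvl, Etfdh, Slc25a20 and Ech1 kept theirs in all 6.

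Uptake and storage of fatty acids pointed the same way, with 6 of 34 lower and none higher. Ces1d, a lipase, had 11.07, 11.54 and 11.14 in the littermates and 9.39, 9.21 and 9.20 in the mild line (-1.98, SE 0.140, adjusted p = 8.5e-07). Fabp3, the fatty acid binding protein of the heart, fell by 0.66 (SE 0.094, adjusted p = 0.00082) and the transporter gene Slc27a1 by 0.47 (adjusted p = 0.00096). The calls of Plin5, Agpat2 and Vldlr were lost in fits without 1 array (adjusted p up to 0.144), which left 3 calls without mild line replicate 2 and 3 without mild line replicate 3. The nuclear receptor gene Rxrg fell by 0.45 (adjusted p = 0.00124), while Ppara lay near background (-0.03) and Ppargc1a had -0.53 (SE 0.205, adjusted p = 0.299).

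In amino acid catabolism and the TCA cycle 6 of 41 fell and none rose. Members of the branched-chain ketoacid dehydrogenase step were among them: Ppm1k, its activating phosphatase, fell by 0.66 (SE 0.073, adjusted p = 7.5e-05), its core subunit Dbt by 0.47 (SE 0.060, adjusted p = 0.00026) and Bckdhb by 0.51, the last call being lost in 4 of the 6 fits without 1 array (adjusted p up to 0.109). With the severe line's littermates as controls Bckdhb had only -0.02 (adjusted p = 0.964). Mccc2, of leucine breakdown, fell by 0.49 (adjusted p = 0.00192). Outside this list Gpt, alanine aminotransferase, fell by 0.86 (adjusted p = 2.1e-06). The list had 3 calls without mild line replicate 2 and 3 without replicate 3. The respiratory chain held few calls: 0 of 38 complex I genes were called (median -0.04), and in complexes II to V 1 of 45 rose and 1 fell. The riser was Atpif1, the inhibitor of ATP synthase (0.50, SE 0.061, adjusted p = 0.00021). Of 49 mitochondrial ribosomal proteins only Mrps9 was called, at -0.41, and not with median scaling (adjusted p = 0.0532).

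Carbohydrate genes were split, with 3 of 40 higher and 4 lower. Gapdh was called higher, with 0.24 to 0.43 over the 18 alternative settings, and lost its call in 1 of them (adjusted p up to 0.0745). The study took Gapdh as its RT-PCR control, reporting no difference on the arrays. The study's own calls required a 2-fold change. Fbp2, the muscle fructose bisphosphatase, had 8.94, 8.93 and 8.89 in the littermates and 7.79, 7.34 and 7.26 in the mild line (-1.46, SE 0.140, adjusted p = 1.9e-05). Pfkp, a platelet form of phosphofructokinase, had 8.38, 8.05 and 8.11 against 9.21, 9.15 and 9.19 (1.005, SE 0.076, adjusted p = 1.6e-06). Pdk4, which shuts carbon out of the pyruvate dehydrogenase step, had a difference of -0.92 (SE 0.203, adjusted p = 0.0219). In mild line replicate 1 it was 9.71, close to the lowest littermate at 9.80, and the call was lost in 4 of the 6 fits without 1 array (adjusted p up to 0.134). With the severe line's littermates as controls Pdk4 had only -0.20 (adjusted p = 0.733). Bdh1, which interconverts ketone bodies, had 7.03, 7.18 and 7.18 against 8.15, 8.28 and 8.001 (1.01, SE 0.104, adjusted p = 3.8e-05). It was the only called gene of 6 in ketone body metabolism.

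Synthesis of NAD was represented by 1 large rise. Nmrk2, the muscle nicotinamide riboside kinase, had 7.42, 7.28 and 7.31 in the littermates and 9.65, 9.21 and 9.17 in the mild line (2.004, SE 0.129, adjusted p = 3.2e-07). Among the other 21 genes of this list 4 fell: Naprt by 0.61 (adjusted p = 0.00021), Nampt by 0.41, Sirt5 by 0.37 and Sirt3 by 0.32. Without mild line replicate 3 or littermate replicate 1 or 3 the list had 3 calls rather than 5, since those of Nampt and Sirt3 depended on single arrays (adjusted p up to 0.105). With the severe line's littermates as controls Nampt had only -0.10 (adjusted p = 0.638). The creatine transporter gene Slc6a8 rose by 0.52 (adjusted p = 0.00137) and the brain-type creatine kinase gene Ckb by 0.49 (adjusted p = 0.00211).

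Of 26 genes of heart failure and hypertrophy, 11 were higher, 1, Ces1d, was lower and 14 were not called, with a median of 0.33. The list shares Acta1, Rcan1, Nppb, Ccn2 and Fhl1 with the SRF network. Tnfrsf12a, the receptor of the cytokine TWEAK, had 9.17, 9.01 and 9.76 in the littermates and 10.59, 10.91 and 10.66 in the mild line (1.41, SE 0.201, adjusted p = 0.00078). Uck2, a uridine kinase gene, rose by 0.81 (adjusted p = 0.00137) and Tgfb2, a growth factor gene, by 0.68 (SE 0.091, adjusted p = 0.00045). Of 36 genes in the TGF β and BMP list Tgfb2 was the only one called. The immediate early list had 4 of 32 higher, Egr1, Egr2, Gadd45g and Ccn1, and none lower. Gadd45g rose by 0.66 (SE 0.084, adjusted p = 0.0003), and Egr2 rose by 0.71 and Ccn1 by 0.59 with calls that were lost in fits without 1 array (adjusted p up to 0.0874). With mild line replicate 2 left out, or with median scaling, 2 of these 4 were called.

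The called collagens and other matrix genes were all higher, but most members of both lists were not called. Col8a1, a short-chain collagen, had 8.54, 8.81 and 8.58 in the littermates and 9.64, 9.73 and 9.69 in the mild line (1.04, SE 0.099, adjusted p = 1.8e-05). Of 22 collagens 3 were called, Col8a1, Col4a5 (0.39) and Col6a1 (0.35), and 20 had a positive difference, with a median of 0.13. Median scaling ended the call of Col4a5 (adjusted p = 0.224), and that of Col6a1 was lost in 4 of the 6 fits without 1 array (adjusted p up to 0.14). The fibrillar collagen genes Col1a1 and Col3a1 had 0.13 (adjusted p = 0.819) and 0.18 (adjusted p = 0.738). In the list of other matrix genes 5 of 50 rose and none fell, among them the microfibril genes Mfap4 by 0.76, Mfap2 by 0.66 and Mfap5 by 0.62. Mfap2 (SE 0.081, adjusted p = 0.00021) and the crosslinking enzyme gene Loxl1, which rose by 0.37 (adjusted p = 0.00612, but 0.153 with median scaling), kept their calls in every fit without 1 array, and those of Mfap4, Mfap5 and Bgn did not (adjusted p up to 0.199). The list had 2 calls without mild line replicate 2, and 3 without mild line replicate 3 or littermate replicate 2. In the laminin and integrin list 2 of 34 fell and 3 rose, with a median of 0.04. Lamb3 had 9.18, 9.20 and 9.04 against 7.92, 7.66 and 7.65 (-1.39, SE 0.101, adjusted p = 1.2e-06) and Lama5 fell by 0.70 (adjusted p = 0.00142). The integrin genes Itga5 and Itga7 rose by 0.44 and 0.36, the latter with a call lost in 5 of the 6 fits without 1 array (adjusted p up to 0.175), and the third was Nmrk2, listed there under an older name. The fibroblast marker list had 1 call in 19, Mfap5, and a median of 0.05.

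Stress and redox genes held a few clear changes. Nqo1, a quinone reductase under NRF2, had 7.69, 7.82 and 7.77 in the littermates and 8.74, 8.64 and 8.74 in the mild line (0.95, SE 0.085, adjusted p = 1e-05). In the antioxidant and NRF2 list 2 of 37 were higher, the other being Gpx4 (0.42), 1 was lower, Gstm7 (-0.54), and the median was 0.00. Among chaperones the small heat shock protein gene Hspb1 rose by 0.51 (adjusted p = 0.00239, but 0.102 with median scaling), while the mitochondrial chaperone gene Hspd1 fell by 0.48 (adjusted p = 0.00213, but 0.0577 with median scaling). Hspb3, Cryab and Hspb6 rose by 0.56, 0.49 and 0.33 with calls that were lost in fits without 1 array (adjusted p up to 0.215). With median scaling 1 of the 37 chaperone genes was called rather than 7, and without single arrays as few as 3 were called.

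Splicing regulators outside the CELF and MBNL family included 2 decreases among 32 measured. Rbfox1, a splicing factor of heart, muscle and brain, had 9.07, 9.12 and 9.15 in the littermates and 7.62, 7.60 and 7.62 in the mild line (-1.498, SE 0.078, adjusted p = 2.4e-08). Khdrbs3 had 8.14, 7.96 and 8.15 against 7.34, 7.57 and 7.53 (-0.60, SE 0.092, adjusted p = 0.00133). The median of this list was 0.01. Among 33 cardiac transcription factors Hopx alone was called.

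Several of the largest changes stood apart from the groups above. Cep70, a centrosome gene, had 6.66, 6.40 and 6.44 in the littermates, near background, and 9.35, 9.28 and 9.66 in the mild line (2.93, SE 0.093, adjusted p = 7e-11), second to Celf4 among the increases. It belongs to the cell cycle list, of whose other 47 genes none was called. A second Cep70 feature stayed at background (0.04). Crip2, a LIM domain protein gene, had 13.79, 13.68 and 13.79 against 12.10, 12.07 and 11.98 (-1.70, SE 0.057, adjusted p = 1e-10). Lrtm1 had 10.56, 10.72 and 10.86 against 8.64, 8.52 and 8.43 (-2.18, SE 0.082, adjusted p = 5e-10). Whrn, a scaffold protein gene known from hearing, fell by 1.499 (SE 0.097, adjusted p = 3.2e-07) and Ano10, an anoctamin gene, by 1.82 (SE 0.166, adjusted p = 1.2e-05). The cilium genes Ttll1 and Ift81 fell by 1.46 (SE 0.112) and 1.33 (SE 0.065). Among increases, Spsb4, a subunit of ubiquitin ligases, rose by 1.55 (SE 0.136, adjusted p = 8.2e-06) and Pdlim1, a PDZ and LIM protein of actin bundles, by 1.18 (SE 0.092, adjusted p = 2.1e-06). Lmcd1, a LIM protein, rose by 1.03 (SE 0.091, adjusted p = 8.4e-06).

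Below 2-fold, the 10 changes each way with the smallest adjusted p were picked among features above the median signal. A small adjusted p marks a change that is large beside its spread, so the clear separation of these genes follows from the choice. Cox19, an assembly factor of cytochrome oxidase, had 9.97, 9.95 and 10.02 in the littermates and 10.88, 10.72 and 10.84 in the mild line (0.83, SE 0.075, adjusted p = 1e-05). Schip1 had 10.71, 10.65 and 10.58 against 10.05, 9.99 and 10.06 (-0.61, SE 0.055, adjusted p = 1e-05). Fndc5, the precursor of irisin, had 10.76, 10.75 and 10.69 against 10.06, 10.04 and 10.02 (-0.69, SE 0.063, adjusted p = 1e-05). In these 3 genes a shift of 1.5-fold to 1.8-fold was larger than the range within either group. Further decreases of this kind were Gcnt1 (-0.92), Pum3 (-0.93), Rhobtb1 (-0.87), Lypd2 (-0.70) and Tlcd1 (-0.61). Further increases were Tceal5 (0.97), Pcp4l1 (0.92), Msrb1, a methionine sulfoxide reductase (0.91), Jpt1 (0.80), the ETS factor gene Etv5 (0.72), Ppm1e (0.69) and Prmt2 (0.62). All 20 small changes named by this rule kept their calls without any 1 array, which picking by the smallest adjusted p also favours.

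Markers of the other cells of a heart sample mostly did not pass the test. No gene was called among 41 macrophage, complement and chemokine genes (median 0.02), 15 lymphoid and thymus genes (0.01), 14 epicardium and adipose genes (-0.04) or 9 red blood cell genes. Over the 18 alternative settings these counts reached 3, 1, 1 and 3, the last with a replicate block, and without littermate replicate 1 there were 2 red blood cell calls. Of the red blood cell genes, Slc4a1, Alas2 and Hbb-b2 had differences of 0.93, 0.83 and 0.46 that did not pass. Of 38 endothelial genes 1 rose, Emcn (0.28), and 1 fell, Angpt1 (-0.66, SE 0.084, adjusted p = 0.0003). The call of Emcn was lost in each of the 6 fits without 1 array (adjusted p = 0.053 to 0.215). In the lung and airway list Scgb1c1, a secretoglobin gene, had 8.81, 9.31 and 9.28 against 10.39, 10.52 and 10.53 (1.34, SE 0.104, adjusted p = 1.9e-06), while the other 10 genes, surfactant genes among them, were near background in both groups. None of 53 cytosolic ribosomal proteins was called, and of 34 proteasome subunits the immune subunit Psmb10 alone (0.49).

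**Figure D4:**
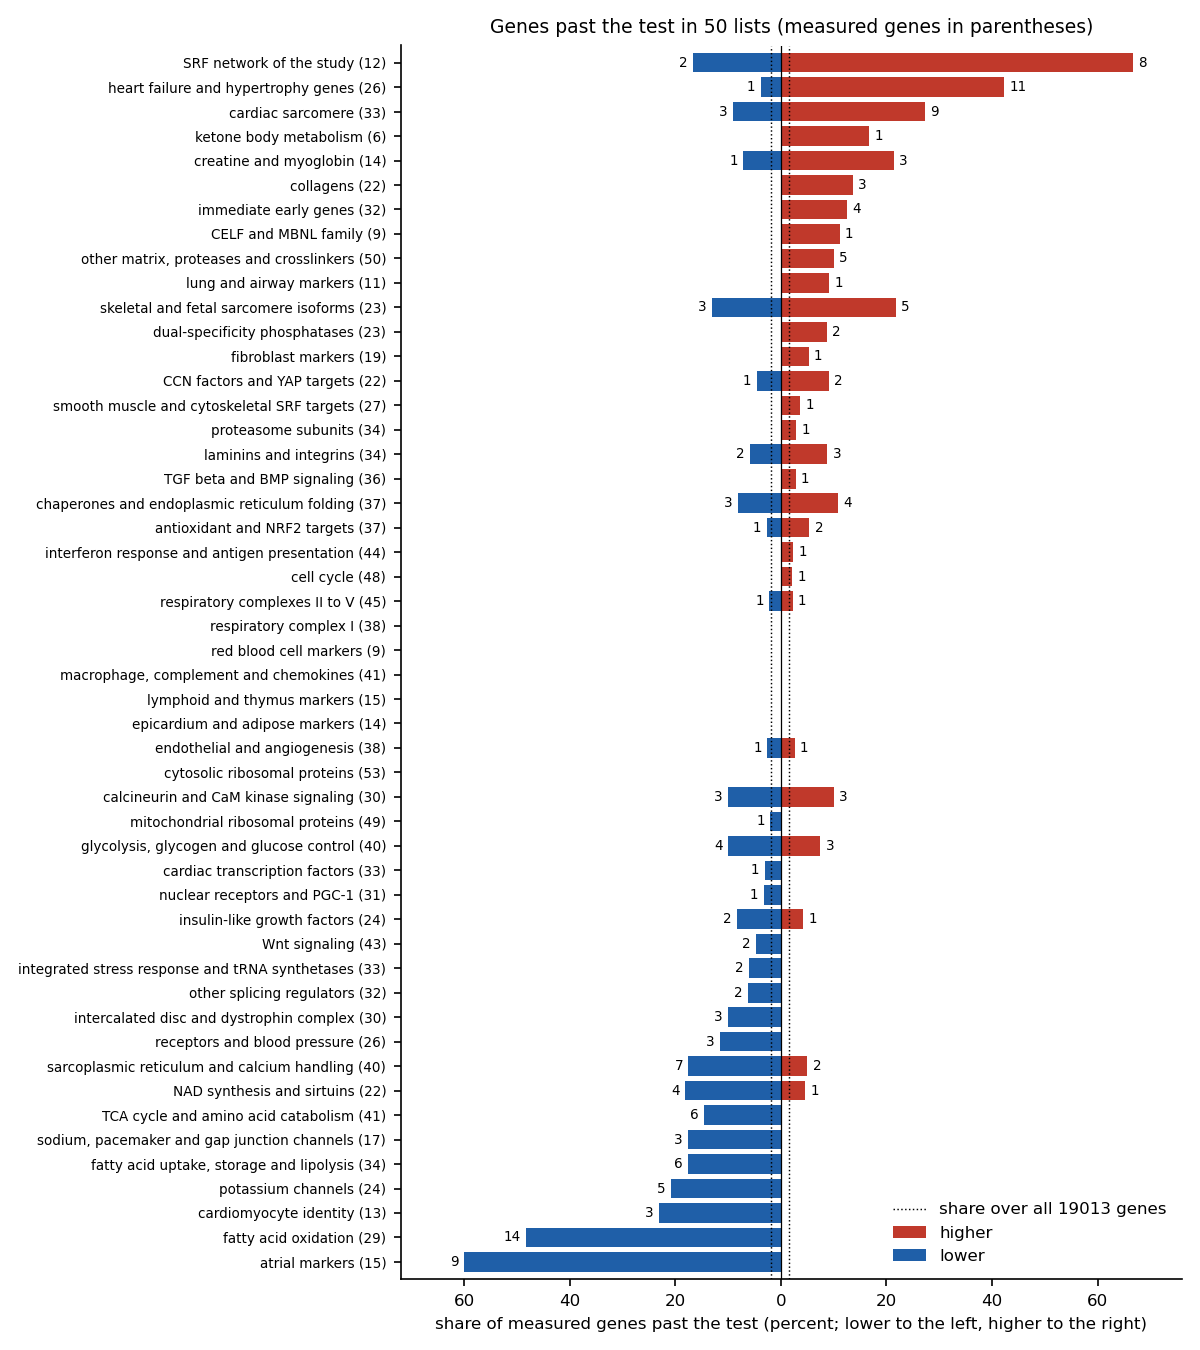
Bars give the percent of the measured genes of each of 50 lists that were called higher (red, right) or lower (blue, left) in the mild line, with the number of genes at the bar end and the shares over all 19013 genes, 1.58% and 1.82%, as dotted lines. The lists with most calls higher are the SRF network (8 of 12, picked on these hearts) and heart failure genes (11 of 26), and with most lower the atrial markers (9 of 15) and fatty acid oxidation (14 of 29). All lists were chosen with earlier results of these data known.

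The severe line was compared only to see where the mild line differs, each line against its own littermates, so that the 2 changes share no array. The severe line had 754 called features (2.44%), and 312 were called in both lines with the same direction, which is 40.78% of the mild line's calls and 41.38% of the severe line's. A test of the difference itself called 85 features (0.275%), and 2277 at an unadjusted p under 0.05. Of these 85, 63 were also called in the mild line, and 57 of those 63 had the larger change there. Keeping only features called in the mild line favours a larger change there, so this count does not compare the 2 lines. The features not called in the mild line were not counted by size. By the sign of that difference, 41 of the 63 were called lower in the mild line with a negative difference, 17 called higher with a positive one, and 5 called higher with a negative one.

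Both inhibitors of SRF and some atrial and calcium genes fell by more in the mild line. Hopx had -3.03 in the mild and -0.40 in the severe line, a difference of -2.63 (SE 0.124, adjusted p = 3.1e-08), and Fhl2 had -1.60 and -0.80 (difference -0.80, SE 0.099, adjusted p = 0.00115). Myom2 had -2.20 and 0.05 (difference -2.25, adjusted p = 4.3e-06). Mybphl had -2.97 and -0.11 (difference -2.86, adjusted p = 3e-07), and of 15 atrial genes 4, with Myl7, Sln and Dkk3, differed between the lines (of all genes, 0.358%), while none was called in the severe line. Of 40 calcium handling genes 4 differed, among them Sln, Ryr2 and Atp2a2, and Pln was not shown to differ (-0.68, adjusted p = 0.232). For Ryr2 the values were -1.20 and -0.33 (difference -0.87, adjusted p = 0.0008) and for Atp2a2 -0.58 and -0.04 (difference -0.53, adjusted p = 0.0138). Rbfox1 had -1.498 and -0.31 (difference -1.19, adjusted p = 6e-05) and Crip2 -1.70 and -0.28 (difference -1.42, adjusted p = 1.6e-07). Cep70 had 2.93 and -0.08 (difference 3.01, adjusted p = 2.1e-08), Nqo1 0.95 and 0.07 (difference 0.88, adjusted p = 0.00291), and Bdh1 1.01 and 0.09 (difference 0.92, adjusted p = 0.0113).

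Other genes changed by less in the mild line. Tnnt1 rose by 1.94 in the mild and by 3.92 in the severe line (difference -1.98, adjusted p = 0.0002), and Ppp1r1a by 1.0008 and 1.955 (difference -0.95, adjusted p = 0.00619). The SRF targets were not shown to differ: for Acta1 the difference of the changes was 0.15 (SE 0.133, adjusted p = 0.88), for Rcan1 -0.07 (adjusted p = 0.976) and for Nppb 0.15 (adjusted p = 0.971). Dusp26 and Nmrk2 had differences of 0.44 (adjusted p = 0.476) and 0.12 (adjusted p = 0.949). None of the 29 fatty acid oxidation genes passed this test. The littermates of the 2 lines differed from each other in 35 features, of which 4 were among the 765 called in the mild line. The number of features that differed between the lines was 54 without mild line replicate 3.

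**Figure D5:**
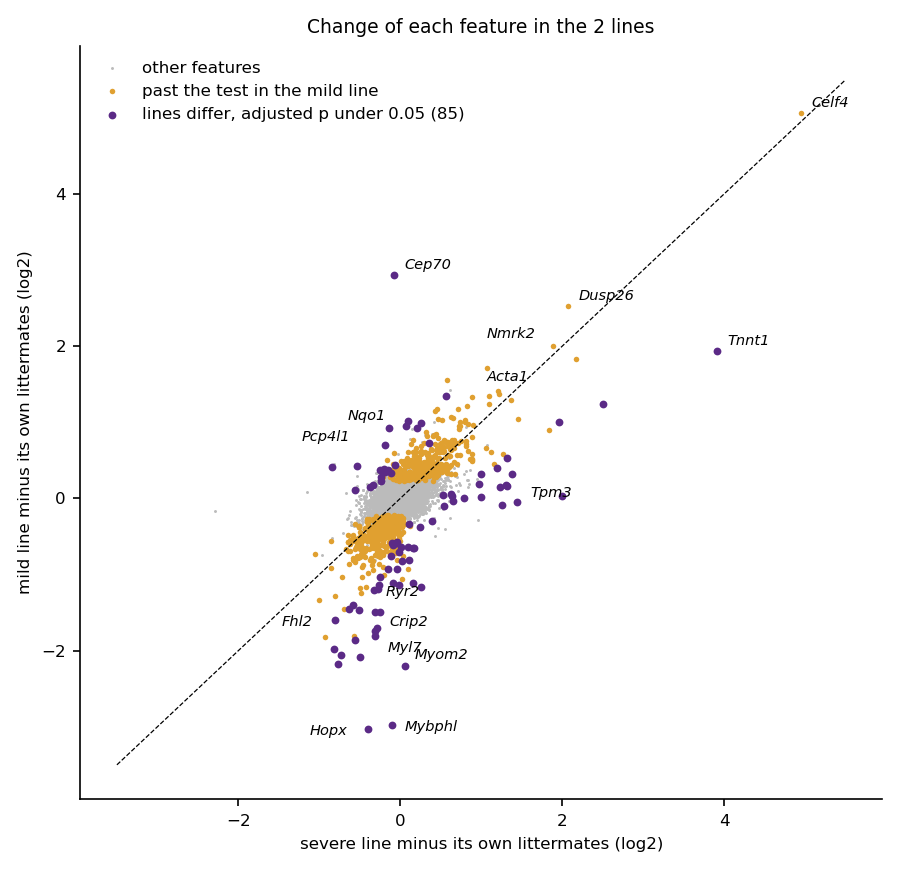
Each point is 1 feature, with its log2 change in the severe line on the horizontal and in the mild line on the vertical axis, each against its own littermates, and a dashed line of equal change. Celf4, Acta1, Nmrk2 and Dusp26 lie near the line, Hopx far below it at -0.40 in the severe line, Mybphl and Myom2 far below it at -0.11 and 0.05, and Cep70 far above it.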

How the data were processed

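Total RNA of each whole heart was measured on 1 array (Illumina MouseWG-6 v2.0). The authors deposited raw probe intensities and log2 values normalized across the 12 arrays. The submitters' processing notes name GenomeStudio and limma, with versions not given in the sources used here. The deposited log2 values differed by at most 0.375 from quantile-normalized log2 raw intensities, with the same ranks within each array, so that most of the background remains in them. Fold changes of dim features are therefore compressed.

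Of 45281 probe IDs, 34885 had 1 gene symbol, 18 several and 10378 none in the platform annotation, which can be old. IDs with identical rows were merged to 30854 features. From the 3 arrays that had them, 6 lines without an ID were left out. All 12 arrays were fitted by group with lmFit and eBayes of limma 3.58.1 in R 4.3.3, which left 8 residual degrees of freedom. The mild line was compared with its own littermates, and its change with that of the severe line as an interaction. P-values were adjusted by Benjamini-Hochberg over all features. The fit was tested on simulated data. Lists were described by the brightest feature of each gene, with counts and medians and no set test. Promoter sequences were from RefSeq (GRCm38.p6), and 27025 genes had a window.

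Named were the 15 largest changes each way, the 10 each way with the smallest adjusted p under 2-fold, up to 4 called members per list, the SRF network and CELF and MBNL genes, the 5 largest interaction differences each way, and cell type markers. Other called list members and other features past 2-fold, 54 in all, were outside that rule and were named after their values were seen. The members and lists were chosen with earlier results of these data known. The arrays of a group are separate hearts according to the labels, and no chip or batch was given. Alternatives were the scaling and background correction, the samples and controls in the fit, variance models, merging, a filter on dim features, the replicate number as a block, and leaving out each array.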

Additional observations from a re-analysis of the deposited data

Results flagged for a closer look

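The change against own littermates differed between the mild and the severe line in the limma interaction test for the following named features, given as the log2 change of the mild line minus that of the severe line. Decreases that were larger in the mild line were seen for Mybphl (-2.86), Hopx (-2.63), Myom2 (-2.25), the features of Fhl2 (-1.58 and -0.80), Myl7 (-1.50), Sln (-1.43), Crip2 (-1.42), Lrtm1 (-1.42), Parm1 (-1.42), Whrn (-1.25), Rbfox1 (-1.19), Ces1d (-1.16), Dkk3 (-1.12), Mlana (-1.02) and Corin (-0.96). Smaller differences of this kind were those of Pum3 (-0.89), Abhd1 (-0.88), Ryr2 (-0.87), Ttll1 (-0.82), Lamb3 (-0.81), Gcnt1 (-0.77), Atp2a2 (-0.53), Tlcd1 (-0.52) and Lars (-0.43). Of the genes in this paragraph, Myom2, Parm1 and Lars did not fall in the severe line, where they had 0.05, 0.25 and 0.10 and did not pass the test.

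Increases that were smaller in the mild line were those of Tnnt1 (-1.98), 2310002L09Rik (-1.26), Ppp1r1a (-0.95) and Tpm3 (-1.97), the last with 0.03 in the mild and 2.004 in the severe line. Increases that were larger in the mild line were those of Adssl1 (0.51), Myot (0.74), Scgb1c1 (0.78), Nqo1 (0.88), Bdh1 (0.92), Pcp4l1 (1.06) and Cep70 (3.01). Of these, Adssl1, Pcp4l1 and Cep70 did not rise in the severe line, where they had -0.07, -0.14 and -0.08. Pygl differed by 0.97, with 0.43 in the mild and -0.54 in the severe line. Erdr1 differed by 1.24, with 0.41 in the mild line, which did not pass, and -0.84 in the severe line.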

How the results depend on the processing

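The count of 765 called features was 505 with median scaling of the raw intensities, 1361 with the severe line's littermates as controls, 1454 with probe IDs not merged, and 495 to 642 with 1 array left out. For the 350 higher these counts were 190, 649, 646 and 221 to 304. For the 415 lower they were 712 with the severe line's littermates, 808 without merging and 274 to 338 with 1 array left out. Without mild line replicate 2 there were 495 calls, 221 higher and 274 lower. The 68 features past 2-fold were 104 without merging, which counts IDs with the same row again. The 85 features that differed between the lines were 54 with a replicate block and 54 to 90 with 1 array left out, the lowest without mild line replicate 3. Of the 765 features, 467 were still called with median scaling and 603 with the severe line's littermates. The replicate numbers did not pair the arrays (same-number correlations of 0.073, -0.01 and -0.042). A replicate block gave 841 calls in the mild line, 653 of them shared. Of 194 named called features 122 kept their call in all 18 settings and 72 lost it in 1 or more, 52 of them with median scaling. Emcn turned to -0.035 (adjusted p = 0.879 in limma) with the severe line's littermates as controls. Other than where the change in counting explains it, the cause was not tested. The number of arrays and, for dim features, the background limit what can be seen.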

Other observations

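Cep70, the second-largest increase, was looked at with its neighbours, a choice made after its value was seen. Of 19 genes measured within 1 Mb of it, 1 was called. Over all genes 3.4% were called. Many of the 19 genes lay near background, where few features were called. The count therefore cannot show whether this window differs from others. The called gene, Esyt3, was near background, with 6.56, 6.74 and 6.51 in the littermates and 7.05, 6.91 and 6.91 in the mild line (0.35, SE 0.073, adjusted p = 0.0152 in limma). The change of Esyt3 differed from that of the severe line by 0.54 (adjusted p = 0.0456), in a test that 0.358% of all genes passed.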
